A study of Caenorhabditis elegans with 2 samples.

Results

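Of 62 genes for histone modifiers and chromatin regulators in Caenorhabditis elegans, 9 had a summit of NFYB-1 binding in the promoter. NFYB-1 is the B subunit of NF-Y, a transcription factor that reads the CCAAT box. The 62 genes were sor-1 and every protein-coding gene of the WBcel235 annotation whose symbol starts with set-, met-, jmjd-, hda-, hpl-, mys-, utx-, lsd- or spr- and a number. They were taken from 19973 protein-coding genes on the 6 nuclear chromosomes. The data are ChIP-seq (sequencing of immunoprecipitated chromatin) from 2 biological replicates of 1 group, which the labels list as separate samples of 1 strain. All worms were young adults of strain RW12190, collected at 65 hours, in which nfyb-1 was tagged at its own locus on chromosome II by CRISPR (st12190[nfyb-1::TY1::EGFP::3xFLAG] II), and the fusion was pulled down with an antibody to GFP. Worms had been starved as L1 larvae after bleaching to synchronise them. Whole animals were used, so a region bound in few cells and a region bound weakly in many cannot be told apart. There was no second condition. The authors' lists were made with a control, per the deposited descriptions, but control data were not analysed here.

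Histone modifiers add or remove chemical groups on histone tails, and other proteins read those groups. SET-domain proteins can add methyl groups to lysines, and Jumonji-domain and LSD1-type proteins can remove them. MYST-type acetyltransferases (mys-) and histone deacetylases (hda-) set the level of acetylation. HP1-like proteins (hpl-) bind methylated histones in heterochromatin, and the SPR proteins, found as suppressors of presenilin mutants, include parts of a CoREST-type corepressor. In the worm, chromatin regulators are known for roles in the germ line, in lifespan and in keeping Hox genes silent.

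A gene counted as bound when any of its annotated starts had a summit no more than 500 bp upstream or 200 bp downstream. Summits were those of the conservative thresholded list, called the main list. It held 3890 regions from the alignments of both replicates. The lists of replicates 1 and 2 held 1734 and 2433 regions. Signals are those the authors assigned to each region, on a scale that the files do not state. Sequencing depth is unknown. With n = 2, the SDs describe only the spread between these samples.

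By class, 5 of the 33 methyltransferase genes (set- and met-) were bound, which is 15.2%, and 4 of the 29 other members, which is 13.8%. Together the 9 bound members made 14.5% of the 62, where 1480 of all 19973 protein-coding genes (7.41%) were bound. The bound methyltransferase genes were set-16, set-21, set-4, set-2 and met-1. Membership of this class and of the other classes, such as the demethylase type, rests on the gene symbol. The enzyme activity of the products was not checked. The other bound members were sor-1, the Jumonji genes jmjd-1.2 and jmjd-4, and spr-2. None of the 8 deacetylase genes, the 3 mys- genes or the 2 hpl- genes had a main-list summit in the promoter window. These classes are too small for counts of 0 to set them apart from the 7.41% of all genes. In the list of replicate 2, where 5.12% of all genes were bound, 1 of the 8 deacetylase genes was bound, hda-6. The genes were chosen with earlier results of these data known, so the shares are given as a description with no test.

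**Figure D1:**
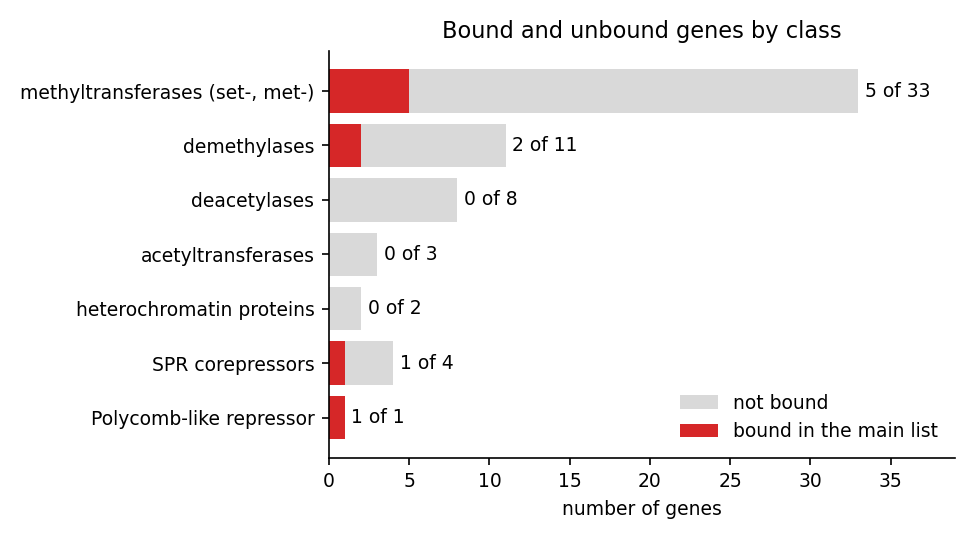
Number of chromatin genes in each class (bar length) and the number bound in the main list (red). The methyltransferase class held 5 of the 9 bound genes and 33 of the 62 members.

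The sequences under the 4 strongest of the 9 summits, chosen by main-list signal, are shown first. That of set-2 is added, chosen after its CCAAT box was seen. Each is the 201 bp window centred on the summit, read on the strand of the gene from the ce11 (WBcel235) genome. Capitals mark CCAAT, which reads ATTGG where it lies on the other strand, with the whole of the longer NF-Y pattern RRCCAATSR where that was met. They also mark the pentamer CGCGC, which reads GCGCG where it lies on the other strand. The windows are chrIII:8417665-8417865 on the plus strand for sor-1, chrIII:13643637-13643837 on the plus strand for set-16, chrIV:4390549-4390749 on the plus strand for set-21, chrII:6331487-6331687 on the minus strand for set-4 and chrIII:4930375-4930575 on the minus strand for set-2.
sor-1: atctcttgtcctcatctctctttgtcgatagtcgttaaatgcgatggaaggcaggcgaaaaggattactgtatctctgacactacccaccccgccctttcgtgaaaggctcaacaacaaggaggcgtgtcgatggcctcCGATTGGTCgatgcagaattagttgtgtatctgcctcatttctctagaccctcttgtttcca
set-16: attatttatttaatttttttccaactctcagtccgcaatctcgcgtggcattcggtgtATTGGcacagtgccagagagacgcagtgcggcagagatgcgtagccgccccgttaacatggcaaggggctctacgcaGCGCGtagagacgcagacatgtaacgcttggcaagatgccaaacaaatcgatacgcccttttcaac
set-21: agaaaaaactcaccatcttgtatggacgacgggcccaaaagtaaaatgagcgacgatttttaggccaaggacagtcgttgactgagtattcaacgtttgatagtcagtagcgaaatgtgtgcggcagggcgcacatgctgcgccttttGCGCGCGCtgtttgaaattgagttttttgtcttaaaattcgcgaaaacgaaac
set-4: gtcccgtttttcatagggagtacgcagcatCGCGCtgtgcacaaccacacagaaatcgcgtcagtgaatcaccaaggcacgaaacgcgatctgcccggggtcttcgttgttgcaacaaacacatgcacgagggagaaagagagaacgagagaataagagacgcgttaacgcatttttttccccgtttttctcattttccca
set-2: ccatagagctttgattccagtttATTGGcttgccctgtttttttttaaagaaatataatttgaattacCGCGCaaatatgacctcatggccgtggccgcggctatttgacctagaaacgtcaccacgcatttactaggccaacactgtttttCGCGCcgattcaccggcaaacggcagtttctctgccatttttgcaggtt

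Only the sor-1 window of the 9 held the longer pattern RRCCAATSR, centred 43 bp from the summit. CCAAT on either strand lay in 3 of the 9 windows, those of sor-1, set-16 and set-2, centred 43, 40 and 75 bp from the summits. Over all 1365 promoter summits, 30.8% of windows held CCAAT and 4.62% held RRCCAATSR. Windows of equal length centred 195 bp upstream of the outermost start of every protein-coding gene, the median position of the 9 summits, held them in 33.3% and 1.64%. In the windows of set-4 and set-21 printed above there was no CCAAT.

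The pentamer CGCGC was in 5 of the 9 windows, at set-16, set-21, set-4, jmjd-4 and set-2. It was in 34.1% of promoter summit windows and 11.0% of windows at all genes. At set-21 its 4 overlapping matches form 1 unbroken run, in capitals above. The median GC content of the 9 windows was 48.3%, ranging from 37.3% at spr-2 to 52.2% at met-1, where the median was 42.8% for promoter summits and 33.8% for all genes. The windows of jmjd-1.2, spr-2 and met-1 held none of the 3 motifs.

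**Figure D2:**
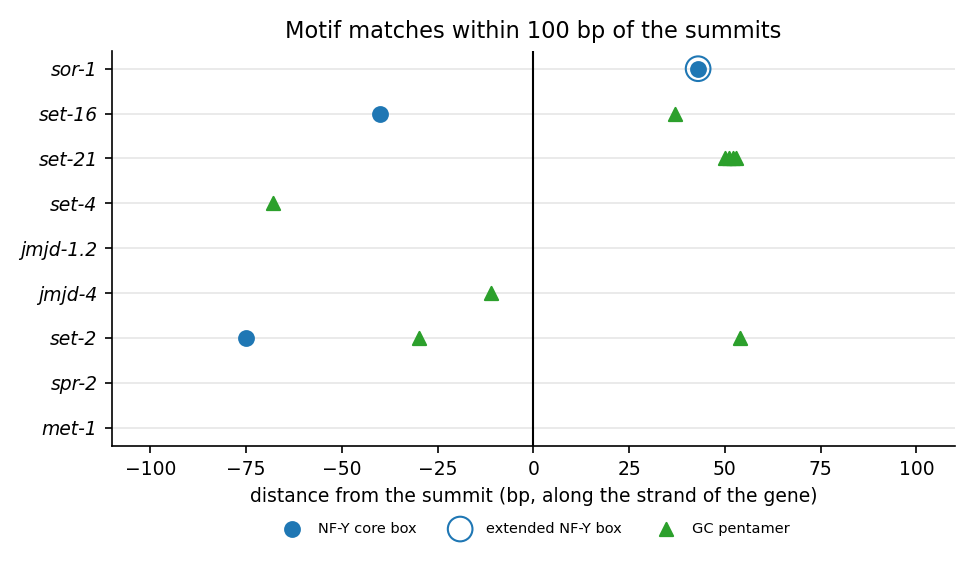
Position of motif matches (bp from the summit, along the strand of the gene) in the 9 windows. Filled circles are CCAAT, the open circle is the longer NF-Y pattern and triangles are the GC pentamer, and the open circle appears at sor-1 alone.

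Among the methyltransferase genes the highest signal was at set-16, which encodes an MLL-type methyltransferase of lysine 4 on histone H3. The region at chrIII:13643590-13643889 had a signal of 1026 in the main list. Its signal was 437 in replicate 1 and 595 in replicate 2 (516 ± 112, mean ± SD, n = 2). This placed it at rank 20 of the 1365 promoter summits. The summit lay 179 bp upstream of set-16 and 167 bp upstream of drr-2, a gene on the other strand whose product has an RNA recognition motif and is related to a translation initiation factor. The region lies between the starts of the pair and its summit is outside every annotated gene.

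The other bound gene for a lysine 4 methyltransferase was set-2, the worm SET1 of the COMPASS complex. Its region at chrIII:4930287-4930662 had a signal of 179 in the main list, at rank 397 of the promoter summits. The replicates gave 78.3 and 98.2 (88.3 ± 14.1, SD, n = 2). The summits in the replicates lay 0 and 3 bp from that of the main list, 271 bp upstream of the start. No other protein-coding start was within 1000 bp of it, and the nearest lay 1778 bp away at C26E6.12.

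The promoter of set-4, which encodes the Suv4-20 methyltransferase of lysine 20 on histone H4, carried a region at chrII:6331399-6331774. Its signal was 287 in the main list (rank 164), 122 in replicate 1 and 158 in replicate 2 (140 ± 24.9, SD, n = 2). The summit lay 246 bp upstream of set-4, and the nearest other protein-coding start was 2400 bp away at ttc-39B.

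At set-21, annotated as a SET-domain protein, the region chrIV:4390540-4390761 reached 588 in the main list, at rank 36. Replicates 1 and 2 gave 278 and 315 (296 ± 25.9, SD, n = 2). The summit lay 195 bp upstream of set-21 but 59 bp upstream of rpl-7A, which encodes the large ribosomal subunit protein eL8 and is read the other way. A snoRNA gene, Y24D9A.9, was 341 bp away. In the set-21 window 19.8% of 30-base stretches also occurred elsewhere in the genome, against 0% at each of the other 8 summits. The treatment of reads that match several places is not stated.

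The lowest main-list signal of the 9 was at met-1, which encodes a Set2-type methyltransferase of lysine 36 on histone H3. It was 122 (rank 810), and the replicates gave 59.5 and 69.0 (64.2 ± 6.76, SD, n = 2). The region lies at chrI:4253917-4254292. Its summit lay 92 bp upstream of met-1, in an intron of the upstream gene C43E11.12. Replicate 1 had the region in its thresholded list. Replicate 2 lacked it there, and its matching ranked region had a −log10 global irreproducible discovery rate (IDR) of 1.95. A low IDR, and so a high −log10 value, means that a region keeps its rank from 1 set of calls to another. The lowest −log10 value in the main list was 2.00.

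**Figure D3:**
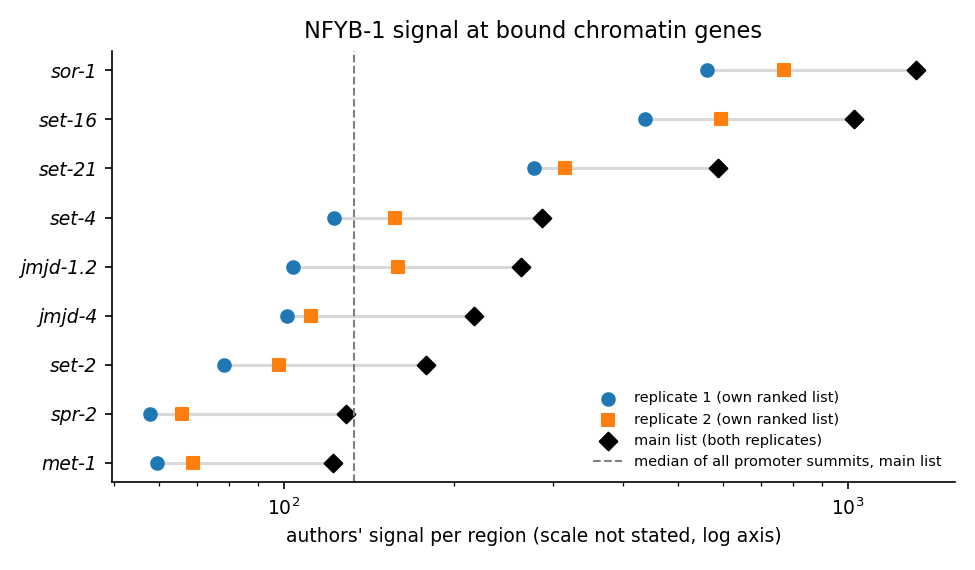
Signal at each bound gene (log axis) in replicate 1, replicate 2 and the main list, with the median of all promoter summits in the main list as a dashed line. The signal was higher in replicate 2 at all 9 genes, and 7 of the 9 main-list values lie above the dashed line.

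The highest signal in a promoter window of the 62 genes was at sor-1, whose product acts like a Polycomb group protein in silencing Hox genes. The region chrIII:8417264-8417949 had a signal of 1323 in the main list, at rank 11 of the promoter summits. Replicates 1 and 2 gave 562 and 770 (666 ± 147, SD, n = 2). Its summit lay 403 bp upstream of the outermost sor-1 start, and no other protein-coding start lay within 8269 bp. Of the 9 bound genes, sor-1 had the highest signal and the greatest distance from the summit to another protein-coding start.

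Of the 11 demethylase-type genes (jmjd-, utx-, lsd- and spr-5), 2 were bound. The first, jmjd-1.2, is annotated as a homolog of lysine demethylase 7 and is known in the worm for a role in the mitochondrial stress response. Its region at chrIV:4660324-4660699 had a signal of 263 in the main list (rank 194), 104 in replicate 1 and 160 in replicate 2 (132 ± 39.5, SD, n = 2). The ratio of replicate 2 to replicate 1, 1.54, was the highest of the 9. The summit lay 479 bp upstream of jmjd-1.2 and 311 bp upstream of F29B9.11, annotated as cytochrome c oxidase polypeptide VIIc, on the other strand.

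The second, jmjd-4, which encodes a Jumonji-domain protein, had a region at chrIII:10333956-10334331 with a signal of 217 in the main list (rank 277). The replicates gave 101 and 112 (106 ± 7.63, SD, n = 2). Its summit lay almost midway in a divergent pair, 126 bp upstream of jmjd-4 and 133 bp upstream of mev-1, which encodes the cytochrome b560 subunit of succinate dehydrogenase. The rest of the class, among them utx-1, lsd-1 and spr-5, had no summit in the window. Their nearest summits lay 6776, 11306 and 25913 bp away.

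Of the 4 other SPR genes, spr-2, related to nucleosome assembly proteins, was bound at chrIV:8891136-8891511. Its signal was 129 in the main list (rank 720), 58.0 in replicate 1 and 66.03 in replicate 2 (62.0 ± 5.69, SD, n = 2). The region of the main list overlapped the thresholded list of replicate 2 only, and the matching ranked region in replicate 1 had a −log10 global IDR of 1.49. The summit of replicate 2 lay 65 bp from that of the main list, the widest shift of the 9. The other genes of the class, spr-1, spr-3 and spr-4, were not bound.

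All 9 summits lay upstream of the gene's start, by 92 to 479 bp with a median of 195 bp. Over all 1480 bound genes, 84.1% had their strongest summit upstream, with a median of 176.5 bp. At 6 of the 9 genes the gene's own start was the nearest protein-coding start, against 84.3% of all bound genes. The exceptions were set-16, set-21 and jmjd-1.2. At 4 of the 9 the summit also bound another gene, drr-2, rpl-7A, F29B9.11 or mev-1, and each of these lay on the opposite strand. In all, 233 of the 1365 promoter summits (17.1%) lay in the windows of more than 1 gene. For set-16, set-21, jmjd-1.2 and jmjd-4 the data do not say to which gene of the pair the binding belongs.

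**Figure D4:**
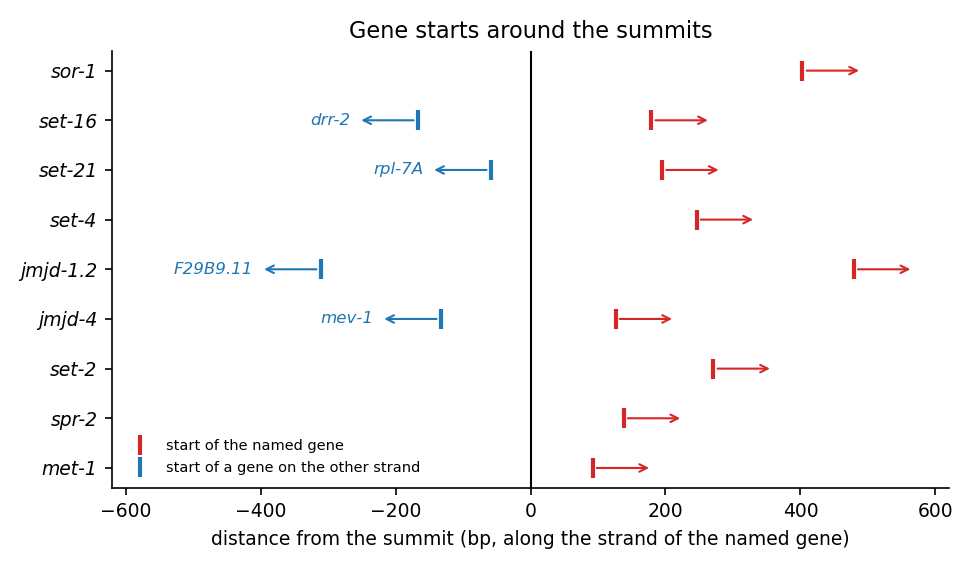
Gene starts around each summit (bp from the summit, along the strand of the named gene), with arrows in the direction of transcription. The 4 genes with a start on the other strand within 311 bp are set-16, set-21, jmjd-1.2 and jmjd-4.

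The calls repeated between the replicates at 7 of the 9 genes, all but met-1 and spr-2, the members of lowest signal. In the list of replicate 1 alone, 8 of the 62 genes were bound (12.9%, with 3.68% of all genes). In that of replicate 2, 9 were bound (14.5%, with 5.12% of all genes). The 7 genes called in all 3 lists made 11.3% of the members, and 604 of all genes (3.02%) met that rule. At the level of regions, 7 of the 9 overlapped both replicates' lists, and 511 of the 1365 promoter summits (37.4%) did. Main-list signals of the 9 had a median of 263, and those of all promoter summits a median of 133. Replicate 2 gave the higher signal at all 9 genes, by ratios of 1.11 to 1.54 with a median of 1.25. Over the 1348 promoter summits with a region in each replicate the median ratio was 1.18, and replicate 2 was higher at 75.1%, so the SDs include an offset shared by most promoters.

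By chromosome, 4 of the 10 members on chromosome III and 3 of the 8 on chromosome IV were bound, beside 11.2% and 7.38% of all genes there. The 4 on chromosome III were sor-1, set-16, set-2 and jmjd-4. On the X chromosome 0 of 15 members were bound, which allows a share of up to 20.0%, and 5.60% of all X genes were bound. The 15 include set-8, set-12, utx-1, lsd-1 and hpl-1. On chromosome V 0 of 8 were bound, which allows up to 37.5%, and 5.19% of all genes there were. Both limits lie above the background of their chromosome.

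The 53 unbound members had their nearest main-list summit at 559 to 67892 bp, with a median of 6776 bp. The closest was set-26, whose product reads methylated histone H3, with a summit 559 bp upstream and so just outside the window, where jmjd-1.2 at 479 bp was just inside. The set-26 region had a signal of 357 in the main list, 155 in replicate 1 and 194 in replicate 2, and it lay 171 bp from the start of tsr-2. Next came jmjd-2 at 1053 bp upstream (signal 75.2), set-17 at 1353 bp downstream (141), hda-2 at 1629 bp downstream (161) and met-2 at 1813 bp upstream (92.6). The set-17 and hda-2 summits lay inside those genes, in the 3′ UTR and the coding sequence. At met-2, which with set-25 makes the main methyltransferases of lysine 9 on histone H3, the summit lay within the coding sequence of lmbr-1.

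**Figure D5:**
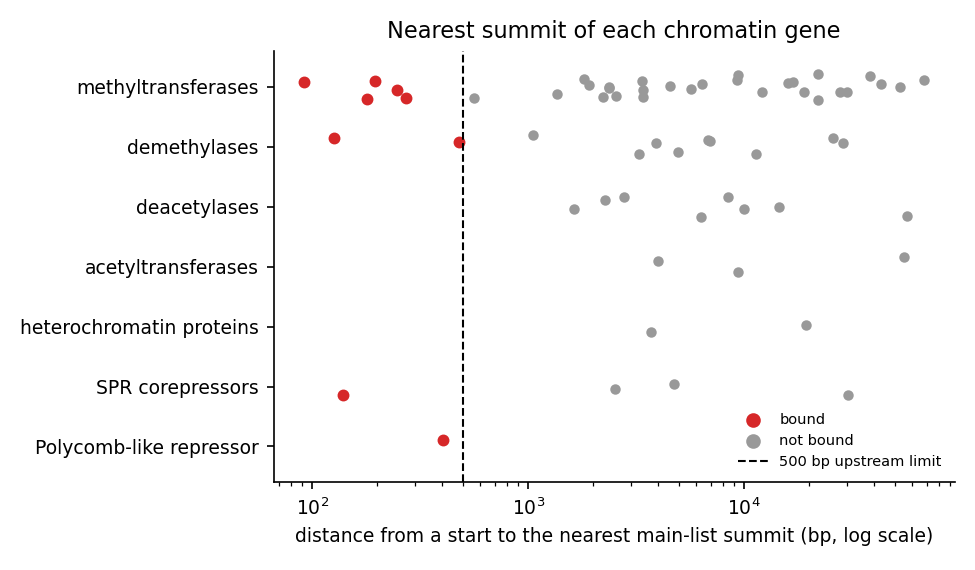
Distance from each of the 62 genes to the nearest main-list summit (bp, log axis) by class, with bound genes in red. The unbound gene nearest to the limit is set-26 at 559 bp, and the median over the 53 unbound genes is 6776 bp.

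In 7 of the 53 unbound members a main-list summit lay within the gene body. The share over all unbound genes is not given, so this count is a description only. The 7 were set-9, set-15, set-17, set-18, hda-2, hda-6 and jmjd-2, with highest signals from 97.2 at hda-6 to 196 at set-18. The set-18 summit fell on a tRNA gene and an ncRNA gene within a set-18 intron. The summit in set-9, a close paralog of set-26, lay in its 3′ UTR with a signal of 102. The heterochromatin gene hpl-2 had a region of signal 1549 at 3719 bp upstream, 58 bp from the start of tasp-1.

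Ranked regions that did not reach the main list lay in the windows of 26 of the 53 unbound members (49.1%), beside 47.8% of all 18493 unbound genes. In the other 27 members no ranked region had its summit in the window. The highest −log10 global IDR among these regions was 1.67, at set-25 with a signal of 71.8, and the median over the 26 was 0.473. The deacetylase gene hda-6 had the highest signal among them, 113, with a −log10 global IDR of 1.46. A summit 12 bp downstream of an hda-6 start was in the list of replicate 2, with a signal of 82.6 and a −log10 global IDR of 2.59. The matching ranked region in replicate 1 had a signal of 33.0 and a −log10 global IDR of 0.628.

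Beyond the 62, 12 lists of other chromatin genes held 115 annotated genes, and 23 of them (20.0%) were bound, beside 7.41% of all genes. These lists were written by hand with earlier results of these data known, and no test was made. The replicate lists alone gave fewer, 15 of the 115 in replicate 1 (3.68% of all genes) and 17 in replicate 2 (5.12%). Of the 23, 12 were also bound in both replicates, and of all 1480 bound genes 604 (40.8%) were. The counts per list below are small and are to be read against the same 7.41%. The corepressor and NuRD list had 7 of 14 bound, namely lin-53, the histone-binding RbAp48, with lin-35, the worm Rb protein, and rcor-1, mep-1, dcp-66, arid-1 and egl-27. Of these 7, lin-53 and lin-35 were also bound in both replicates. The chromatin remodeller list had 4 of 16 bound, ruvb-1, swsn-3, nurf-1 and isw-1, of which swsn-3 was also bound in both replicates. The list of readers of histone marks had 4 of 18, bet-2, cec-5, lin-49 and zfp-1, of which bet-2 and cec-5 were. Partners of acetyltransferases had 2 of 7, epc-1 and mrg-1, and both were. The heterochromatin and antisilencing list had 2 of 12, unc-85, a histone chaperone of the Asf1 type, which was bound in both replicates, and hmg-4, which was not.

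The strongest of the 23 was hat-1, a histone acetyltransferase gene, with a main-list signal of 532, followed by lin-53 at 517, unc-85 at 402 and epc-1 at 360. The arginine methyltransferase gene prmt-5 (276), the Polycomb-like gene sor-3 (224) and mes-4, a methyltransferase of lysine 36 (209), were the single bound genes of their lists. Each of these 7 was bound in both replicates. The remaining signals ran from 249 at bet-2 down to 80.7 at isw-1. Of the 11 COMPASS partner genes, which include ash-2, rbbp-5 and dpy-30, the main list had 0 bound and that of replicate 1 had 1, and a count of 0 allows a share of up to 27.3%. Of the 5 other demethylase genes 0 were bound, which allows up to 60.0%. Of the 4 sirtuin genes 0 were bound, which allows up to 75.0%, and replicate 1 alone had 1. These limits lie above the 7.41% of all genes, so the counts of 0 do not set the lists apart from it. At 19 of the 23 the gene's own start was the nearest to the summit.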

How the data were processed

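ChIP-seq regions of 2 biological replicates were read from the authors' deposited lists on the ce11 assembly, which is WBcel235. Per the deposited description files, regions were compared by IDR, the whole-series lists came from the alignments of both replicates and a control, and each replicate list from its own alignment and a control. Neither aligner nor peak caller is given in the sources used here. Values: the authors' deposited signal per region has no stated scale. The authors' deposited −log10 global IDR was taken from the ranked lists. Depth is unknown.

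Starts were those of all transcripts of protein-coding genes (Ensembl release 115). Replicate signals are those of the overlapping ranked region whose summit was nearest. Gene products came from RefSeq or general knowledge. Motifs were searched on both strands within 100 bp of the summit with Python 3.11.15 and pandas 2.3.3. The window calls and the motif search were tested on simulated data with planted summits and motifs. The limit that a count of 0 allows is 3 counts and covers counting error only. It is an approximation that runs too high for lists of few genes, and it treats the genes as a random draw.

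The members and lists were chosen with earlier results of these data known. The text names every bound gene and the 5 unbound members nearest to a summit; other unbound genes named were chosen after their values were seen. Of 124 symbols in the other lists, 9 were not matched in the annotation. Alternatives were other lists, replicates, IDR, promoter windows, starts and motif windows.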

Additional observations from a re-analysis of the deposited data

How the results depend on the processing

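Across 10 other settings, from 6 to 10 of the 62 genes were bound, and the share of members bound was above that of all genes in each. Of the settings, 1 was added after the data were seen (starts of protein-coding transcripts only). All of them reused the same 2 replicates and the same members, so they are not independent of the main count. Of 90 single-gene values under these alternatives, 81 stayed bound and 9 were lost. With the promoter limited to 250 bp upstream and 100 bp downstream of a start, 6 members were bound (9.68%, with 4.58% of all genes). That window lost sor-1, jmjd-1.2 and set-2, so that 2 members other than methyltransferases were left and the summits with CCAAT and RRCCAATSR fell to 1 and 0. It follows from the positions of those summits, 403, 479 and 271 bp upstream. Within 50 bp of the summit, 3 windows held CGCGC in place of 5. At a global IDR of 0.001 or less, 7 members remained (11.3%, with 3.79% of all genes). With regions overlapping both replicates' lists, 7 also remained (11.3%, with 3.05% of all genes). Both settings lost met-1 and spr-2. The wider promoter (1000 bp upstream) and any overlap of the region each added set-26. They gave 16.1% of members each, with 9.61% and 8.78% of all genes. The other whole-series list added hda-6 (16.1% of members, with 7.58% of all genes). Without replicate 2, spr-2 was lost. Without replicate 1, met-1 was lost and hda-6 gained. The thresholded replicate lists gave a signal in both replicates at 7 of the 9 genes. For the 12 other lists, the alternatives were added after the data were seen. The 23 bound genes became 15 without replicate 2 (3.68% of all genes bound) and 17 without replicate 1 (5.12%). They became 12 with regions overlapping both replicates' lists (3.05%) and 15 at the lower IDR (3.79%). The narrow promoter gave 12 (4.58%) and the wide one 37 (9.61%), where the main setting had 7.41% of all genes bound. No paired analysis was possible because there was 1 group. Unknown depth limits what a missing region shows, and an unbound gene is not shown to be free of NFYB-1.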

Other observations

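A heptamer noticed in the printed windows, GAGACGC on either strand, was counted after the sequences were seen. It lay within 100 bp of 4 of the 9 summits, at set-16 (2 matches), set-4, jmjd-4 and met-1. It was in 12.7% of all promoter summit windows and in 3.00% of windows at all genes, and no test was made on the members from which it was picked. Of the 4 genes with it, set-16 alone also held CCAAT, and met-1 held neither CCAAT nor CGCGC.

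At 2 unbound members the nearest main-list region had a main-list signal far below both replicate signals. It was 14.001 at hda-4, beside 92.4 in replicate 1 and 101.8 in replicate 2, and 13.6 at set-30, beside 63.7 and 59.8. They were 2 of the 50 unbound members whose nearest region had a signal in each replicate. Of the 1348 promoter summits with a region in each, 60 (4.45%) had a main-list signal below both. At each of the 9 bound genes the main-list signal was above both replicate signals. The cause was not tested.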
